A study of Mus musculus with 35 samples.

Results

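The genes described here are transcriptional targets of p53 (gene Trp53), followed in sorted mouse mammary cells of parous and nulliparous females. The set was named as Trp53 and 9 targets, and each gene was represented by its probe set with a single gene symbol and the highest mean over all samples. Of these 10 genes, 7 were measured, out of 19937 genes in all, namely Mdm2, Plk2, Ccng1, Bbc3, Aen, Trp53inp1 and Sesn1, each with 1 probe set. Trp53, Cdkn1a and Bax had no probe set with a single symbol of their own in the annotation used, and were not analysed here. The p53 transcript itself and its best known arrest target are therefore not among the values below.

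The study asked how an early pregnancy changes gene expression in the subpopulations of the mammary gland. Parous females were mated at the age of 42 days, and their glands were taken after a pregnancy, 21 days of lactation and 40 days of involution. Nulliparous females were virgins of the same age. From both, the 4th mammary glands were digested and sorted by flow cytometry into stromal cells, total epithelial cells, luminal Sca1-negative cells, luminal Sca1-positive cells, basal CD49f-low cells and basal CD49f-high cells. Expression was measured on arrays in 35 samples in 12 groups of 3, except parous basal CD49f-high cells, where 1 of 3 replicates was left out by the submitters for poor hybridization and 2 remain. No strain, transgene or deletion is named in the labels, and all mice are described only as parous or virgin. Each sample came from a pool of 5 mice, and RNA of 10000 cells, or of 2000 cells for the CD49f-high subpopulation, was amplified before hybridization. Within a sort, the p-values below therefore compare pools, and the number of arrays limits the precision. The spread they use is estimated for each gene over all 12 groups, and not from the pools of that sort alone. The fit treats all arrays as independent, although same-numbered samples of different sorts may share a pool. A comparison that joins sorts, such as the mean over 4 of them, may thus count 1 pool more than once.

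p53 is a transcription factor that is stabilised after DNA damage and other stresses and then switches on genes that arrest the cell cycle, repair DNA, kill the cell or adjust its metabolism. Mdm2 closes a feedback loop, since it is induced by p53 and directs p53 to degradation. In the mammary gland p53 has been studied in involution and in the lasting effect of an early pregnancy on tumour risk. Because p53 is controlled largely at the protein level, target transcripts are often read in place of its own transcript.

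On GRCm38.p6, the genes lie at chr10:117688875-117710758 (Mdm2), chr13:110395044-110400844 (Plk2), chr11:40748552-40755309 (Ccng1), chr7:16308398-16318334 (Bbc3), chr7:78895927-78911209 (Aen), chr4:11156441-11174379 (Trp53inp1) and chr10:41810574-41908436 (Sesn1). RefSeq windows from 250 bases before to 50 bases after an annotated start were available for 6 of the 7 genes, all but Trp53inp1. The windows were searched on both strands for the p53 half-site consensus, a motif of 10 letters, and for TGACGTCA, the cyclic AMP response element. A half-site was found in 8.36% of 32851 mouse windows, and TGACGTCA in 1.79%. Of the 7 genes, Mdm2, Ccng1, Aen and Sesn1 had a half-site in at least 1 window, and Plk2 and Bbc3 had none. The 6 genes had 10 windows, so this count of genes cannot be set directly against the shares of windows. The Plk2 window is printed because Plk2 was the only one of the 7 genes to pass the test after parity. It lies on the plus strand at chr13:110394794-110395093, and the capitals mark TGACGTCA at positions -62 to -55 from the start. The same window holds 2 matches of GGGCGG, left in small letters, and none of TATAAA or CCAAT.
Plk2: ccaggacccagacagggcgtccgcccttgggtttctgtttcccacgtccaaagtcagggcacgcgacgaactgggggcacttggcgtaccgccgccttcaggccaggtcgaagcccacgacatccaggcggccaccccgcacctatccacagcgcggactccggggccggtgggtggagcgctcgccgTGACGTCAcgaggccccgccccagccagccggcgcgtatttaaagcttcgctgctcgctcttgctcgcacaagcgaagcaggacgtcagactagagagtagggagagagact
The windows of Mdm2, on the minus strand at chr10:117710709-117711008, and of Aen, on the plus strand at chr7:78895677-78895976, are printed for comparison, with the half-site in capitals at -186 to -177 in Mdm2 and at 11 to 20 in Aen. Aen has another annotated start, with a window at chr7:78895808-78896107, from which the same half-site lies at -121 to -112.
Mdm2: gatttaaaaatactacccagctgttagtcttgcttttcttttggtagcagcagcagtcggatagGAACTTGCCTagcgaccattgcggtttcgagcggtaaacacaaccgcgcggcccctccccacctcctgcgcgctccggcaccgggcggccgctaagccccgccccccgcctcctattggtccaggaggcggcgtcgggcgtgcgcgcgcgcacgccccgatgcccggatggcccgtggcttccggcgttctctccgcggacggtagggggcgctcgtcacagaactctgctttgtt
Aen: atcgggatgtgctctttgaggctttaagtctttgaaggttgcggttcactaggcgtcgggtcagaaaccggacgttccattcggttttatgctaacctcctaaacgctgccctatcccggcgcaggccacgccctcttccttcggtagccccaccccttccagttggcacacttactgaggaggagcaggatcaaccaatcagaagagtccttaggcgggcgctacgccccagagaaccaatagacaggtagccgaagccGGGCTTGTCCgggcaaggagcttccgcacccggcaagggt
A match is a run of letters and not a binding site. The absence of a match says nothing about sites elsewhere, and the p53-responsive promoter of Mdm2 is known to lie in an intron, downstream of this window.

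Marker genes set apart the labelled subpopulations. The mean log2 level of 10 basal markers (Krt5, Krt14, Acta2 and others) had a median of 10.13 in basal CD49f-low and 10.31 in basal CD49f-high samples, against 7.04 in luminal Sca1-negative and 6.41 in luminal Sca1-positive samples. For 10 luminal markers (Krt8, Krt18, Epcam and others) the medians were 8.63 and 8.47 in the same basal samples, against 10.11 and 10.02 in the luminal ones. Over 10 fibroblast markers, stromal samples spanned 10.3 to 10.8, and no other sample was above 7.61. All levels are the deposited log2 values of a probe set, and levels of different genes cannot be set against each other on this scale.

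**Figure D1:**
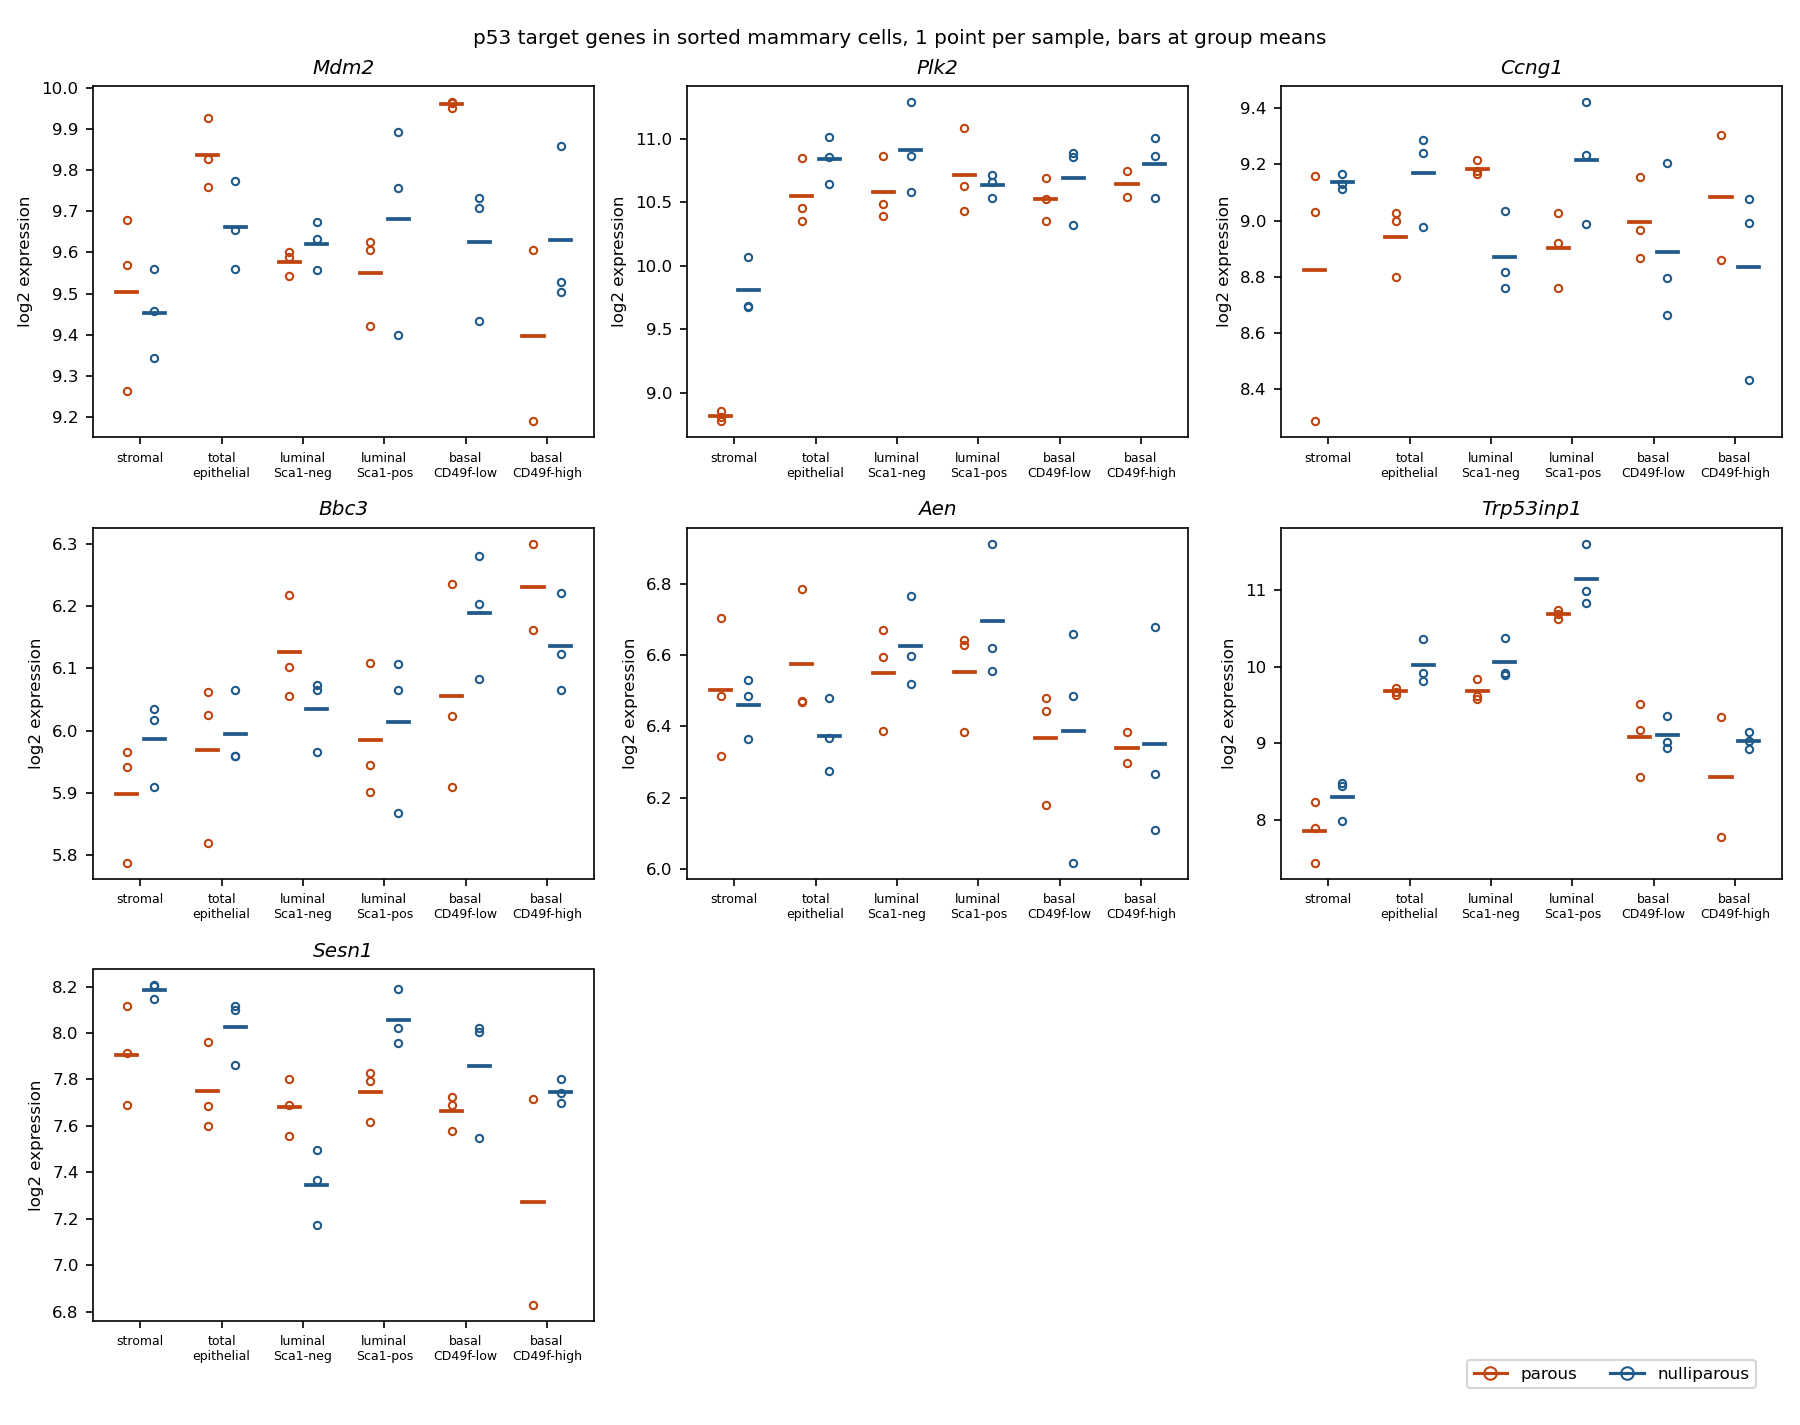
Log2 expression of the 7 measured p53 target genes (vertical axes, 1 panel per gene) in 6 sorted subpopulations (horizontal axes), with 1 point per sample, parous left of nulliparous, and a bar at each group mean. Trp53inp1 is highest in luminal Sca1-positive samples, all at 10.63 or above, and the 3 parous stromal samples are the lowest for Plk2, at 8.78 to 8.86.

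Few parity effects on these genes passed the test. Of the 7, 1 passed an adjusted p under 0.05 in stromal cells, where Plk2 was lower in parous samples, and 0.597% of all genes passed there (0.492% as lower). None of the 7 passed in total epithelial cells (0.446% of all genes passed), in luminal Sca1-negative cells (1.00%), in luminal Sca1-positive cells (0.607%), in basal CD49f-low cells (0.968%) or in basal CD49f-high cells (9.06%). None passed either in the mean over the 4 sorted epithelial subpopulations, where 6.20% of all genes did. With a limma fit and no adjustment, p was under 0.05 for 0 of the 7 genes in total epithelial cells (7.26% of all genes) and in luminal Sca1-positive cells (6.63%). It was under 0.05 for 1 of the 7 in stromal cells (9.16% of all genes), luminal Sca1-negative cells (11.4%), basal CD49f-low cells (10.5%), basal CD49f-high cells (22.0%) and the mean over the sorted epithelial subpopulations (17.9%). Counts of 0 or 1 in 7 are near these shares of all genes. The median parity effect over the 7 genes was -0.28 log2 in stromal cells, against 0.04 over all genes, and lay between -0.23 and -0.02 in the 5 epithelial sorts, where the median over all genes lay between -0.04 and 0.04. The 7 genes are few, so these shares describe them and show nothing particular to the pathway. Effects that did not pass are not thereby shown to be small, since the error was wide for some genes. In luminal Sca1-positive cells the interval of the limma fit ran from -1.02 to 0.10 for Trp53inp1. For Bbc3 in the same cells it ran from -0.23 to 0.17.

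**Figure D2:**
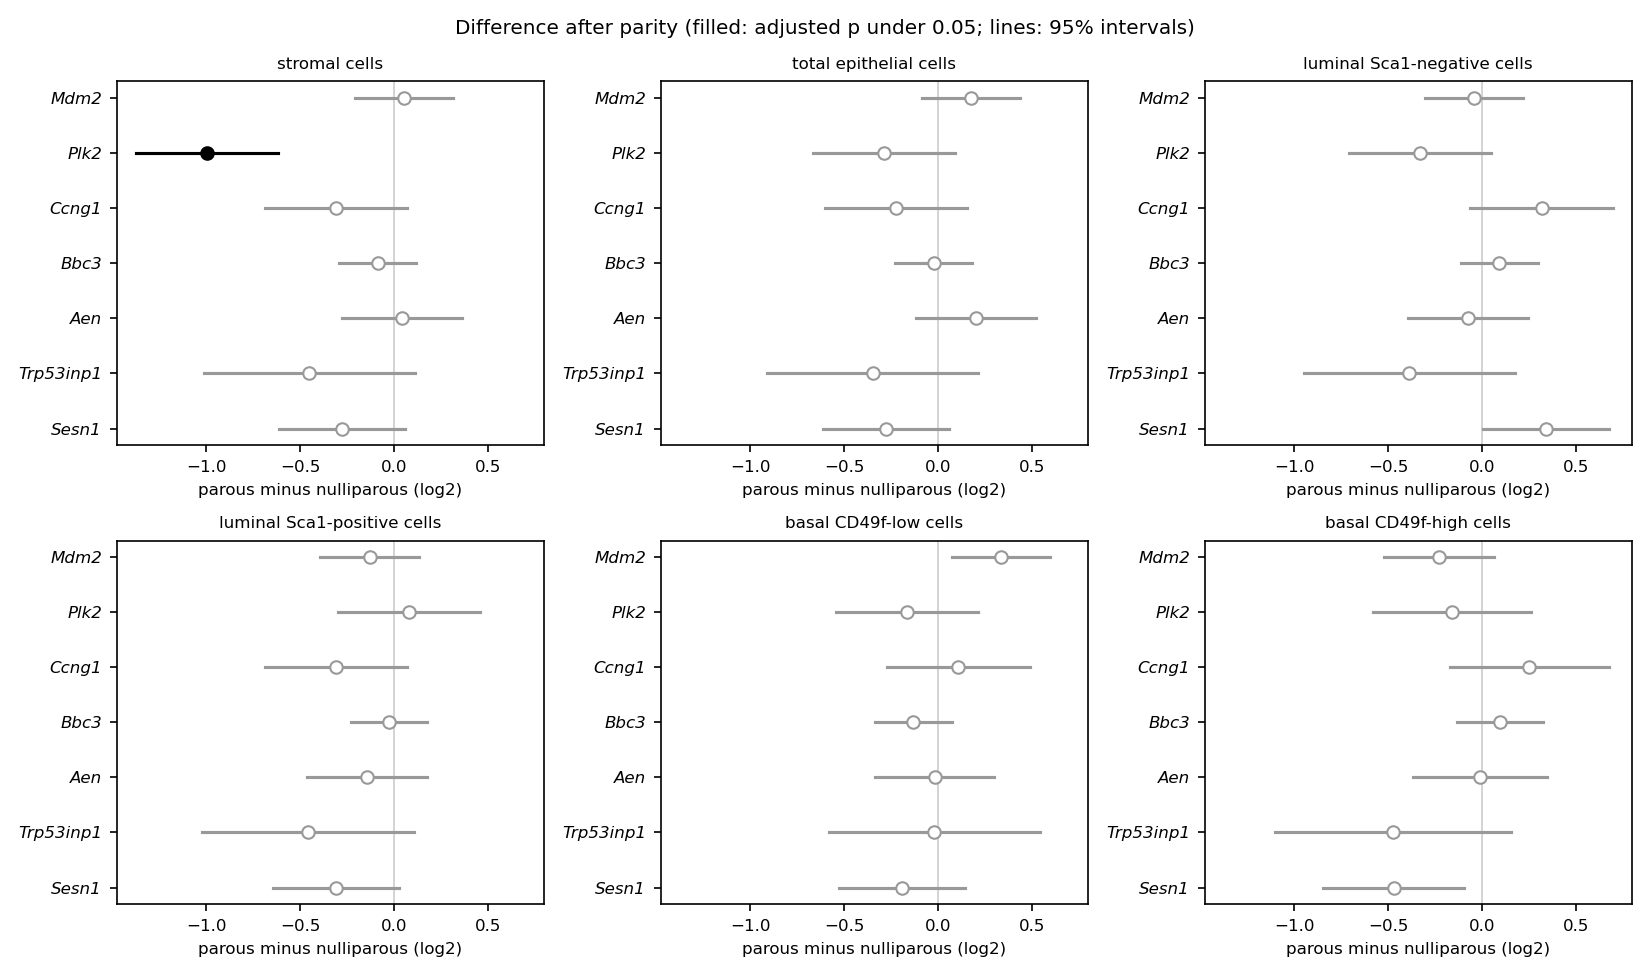
Difference between parous and nulliparous samples (horizontal axes, log2) for each of the 7 genes (vertical axes) in 6 subpopulations, with 95% intervals of the limma fit as lines and filled points where the adjusted p is under 0.05. The only filled point is Plk2 in stromal cells, at -0.996, with an interval from -1.37 to -0.62.

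Mdm2, the ubiquitin ligase that restrains p53, did not pass the test after parity in any subpopulation. In basal CD49f-low cells its level was 9.96, 9.95 and 9.97 (to 2 decimals) in the parous samples, against 9.43, 9.71 and 9.73 in the nulliparous ones. These groups do not overlap, and the parous samples are nearly identical to each other. The difference was 0.33 log2 (SE 0.13, limma), with an unadjusted p of 0.0142 and an adjusted p of 0.3, and Mdm2 was the only one of the 7 genes whose groups did not overlap in these cells, where 14.3% of all genes did not. In the other 5 subpopulations the difference in Mdm2 lay between -0.23 and 0.18, and the groups overlapped.

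Plk2, a polo-like kinase that acts in centriole duplication and in entry into the cell cycle, was lower in stromal cells after parity. It stood at 8.78, 8.81 and 8.86 in the parous stromal samples, against 9.69, 10.07 and 9.68 in the nulliparous stromal samples. All parous samples lie below all nulliparous ones, by far more than the spread within either group. The means were 8.82 ± 0.04 in parous and 9.81 ± 0.22 in nulliparous stromal cells (SD, n = 3 each). The difference was -0.996 log2 (SE 0.18), a 1.99-fold lower level in parous stroma, with an adjusted p of 0.00434 by limma with Benjamini-Hochberg adjustment over all genes. It passed in 45 of 45 alternative settings, in which the difference ran from -1.06 to -0.87 and the adjusted p reached 0.0469 at most. Plk2 and Sesn1 were the 2 genes whose stromal groups did not overlap, both lower in parous cells, where 15.9% of all genes did not overlap in either direction.

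In the epithelial sorts the effect on Plk2 was smaller and did not pass. It was -0.29 log2 in total epithelial cells, -0.33 in luminal Sca1-negative cells, 0.08 in luminal Sca1-positive cells, -0.17 in basal CD49f-low cells and -0.16 in basal CD49f-high cells, with overlapping groups in each. The interval in total epithelial cells ran from -0.67 to 0.09 and that in luminal Sca1-negative cells from -0.71 to 0.05, so falls of up to that size are within the error. A moderated F test of whether the 6 parity effects differ gave Plk2 a range of 1.08 log2, an unadjusted p of 0.00834 and an adjusted p of 0.136. A parity effect on Plk2 that differs among the subpopulations was thus not shown, although the adjusted p was 0.00932 when the replicate number entered as a block. By that F test, 0 of the 7 genes passed, and 2.80% of all genes did. An unadjusted p under 0.05 was found for 2 of the 7 (Plk2 and Sesn1) and for 15.1% of all genes.

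Marker genes of other cells moved in the same stromal samples. The mean over 10 basal markers was 7.78, 7.59 and 7.50 in parous stroma, against 8.02, 8.04 and 7.98 in nulliparous stroma, and 2 of the 10 passed as lower. The mean over 10 endothelial markers was 7.11, 6.85 and 6.88 in parous stroma, against 7.83, 7.42 and 7.26 in nulliparous stroma, and 1 of the 10 passed as lower. The fibroblast list was also without overlap, at 10.26, 10.31 and 10.38 in parous stroma, against 10.41, 10.76 and 10.56 in nulliparous stroma, again with 1 of 10 lower. By contrast, the lists of luminal (10 genes), macrophage and dendritic (10), lymphocyte (9) and adipocyte (6) markers overlapped between the groups, with none passing. The luminal list varied widely among the stromal samples, from 6.53 to 8.33. The 20 immediate early and stress genes, which respond to cell handling, lay between 9.85 and 9.95 in parous and between 9.91 and 10.10 in nulliparous stroma, and none passed. The part of these lists in the Plk2 difference was not tested. In sorted bulk samples fewer cells of a type that carries a transcript and less of the transcript per cell cannot be told apart.

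**Figure D3:**
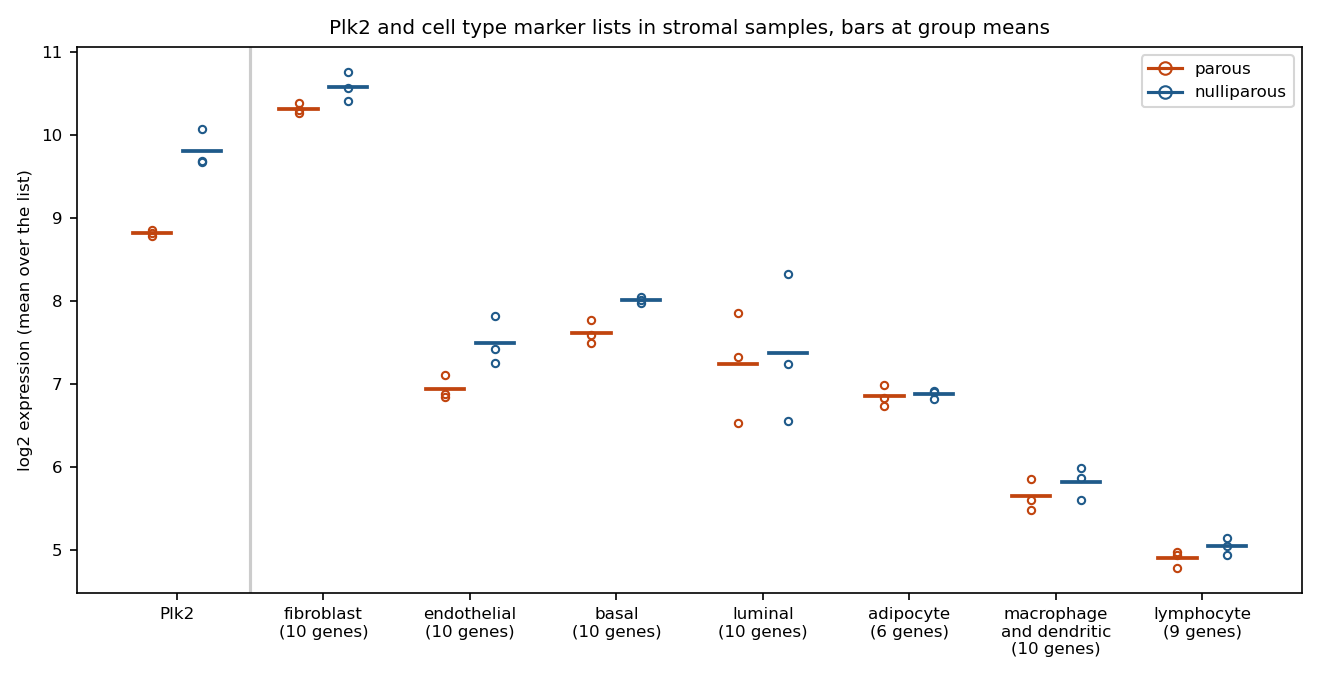
Plk2 (left) and the mean of 7 cell type marker lists (horizontal axis, number of genes below each) in the 6 stromal samples, in log2 expression (vertical axis), with 1 point per sample, parous left of nulliparous, and bars at group means. The groups do not overlap for Plk2 or for the fibroblast, endothelial and basal lists, and they overlap for the other 4 lists.

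Ccng1, which encodes cyclin G1, a p53-induced partner of a protein phosphatase that acts on Mdm2, passed no test of parity. In luminal Sca1-negative cells it was 9.17, 9.18 and 9.22 in parous samples, against 8.76, 8.82 and 9.03 in nulliparous samples, which do not overlap (difference 0.32 log2, SE 0.19, limma adjusted p 0.572). In luminal Sca1-positive cells it was 8.92, 8.76 and 9.03 in parous samples, against 9.42, 8.99 and 9.23 in nulliparous samples, which overlap (difference -0.31, adjusted p 0.888). The parous mean is thus the higher one in luminal Sca1-negative cells and the lower one in luminal Sca1-positive cells. The difference between both luminal parity effects, Sca1-positive minus Sca1-negative, was -0.63 (SE 0.26), with an unadjusted p of 0.0234 and an adjusted p of 0.751.

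Of the genes with a role in cell death, Bbc3 encodes PUMA, which opposes the survival proteins of the mitochondrial membrane, and Aen encodes a nuclease that promotes apoptosis. Bbc3 was the least variable of the 7 genes, with group means spanning 0.33 log2 over the 12 groups and a within-group SD of 0.10. It was also dim, at 5.79 to 6.30 in all samples, beside array medians of 5.813 to 5.924 and a median of 6.04 for the mean level over all genes. No detection call was used. Its parity effects lay between -0.13 and 0.09, and those of Aen between -0.14 and 0.20. The groups overlapped in all 6 subpopulations for both genes, and none passed. The 95% interval that reached furthest from 0, for Aen in total epithelial cells, ran from -0.12 to 0.52.

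Trp53inp1, a stress-induced nuclear protein that promotes p53 phosphorylation and also takes part in autophagy, had lower parous means in all 6 subpopulations, but passed in none. In luminal Sca1-positive cells its level was 10.74, 10.69 and 10.63 in parous samples, against 11.61, 10.99 and 10.84 in nulliparous samples. In luminal Sca1-negative cells it was 9.58, 9.61 and 9.84 in parous samples, against 10.38, 9.92 and 9.90 in nulliparous samples, and in total epithelial cells 9.73, 9.63 and 9.68, against 10.36, 9.81 and 9.91. In these 3 sorts no parous sample reaches a nulliparous one, and the highest nulliparous sample is replicate 1 each time. The differences were -0.46, -0.39 and -0.35 log2 (SE 0.27 each), and their adjusted p-values were 0.672 or more.

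The mean parity effect on Trp53inp1 over the 4 sorted epithelial subpopulations was -0.34 log2 (SE 0.14), with an unadjusted p of 0.0245 and an adjusted p of 0.186. Replicate 1 of every nulliparous sort was taken as 1 pool, which the labels do not state. Without that nulliparous pool 1 the mean effect was -0.26, and the differences in the 3 sorts just given were -0.23, -0.23 and -0.18. Without parous basal CD49f-high replicate 2, which leaves replicate 3 alone in that group, it was -0.53 and passed at an adjusted p of 0.00584. That remaining library is the lowest CD49f-high sample for Sesn1 and Trp53inp1, as given below, and for Mdm2 (9.19). For Ccng1 it is the highest (9.305). In basal CD49f-low cells the effect on Trp53inp1 was -0.02, with parous samples (8.56 to 9.51) on both sides of the nulliparous ones (8.94 to 9.36).

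Sesn1 encodes a sestrin, which restrains growth signalling through mTORC1 and limits peroxides. Its level in luminal Sca1-negative cells was 7.69, 7.80 and 7.56 in parous samples, against 7.37, 7.49 and 7.17 in nulliparous samples. In luminal Sca1-positive cells it was 7.83, 7.62 and 7.80 in parous samples, against 7.96, 8.02 and 8.19 in nulliparous samples. In Sca1-negative cells every parous sample is above every nulliparous one, and in Sca1-positive cells every parous sample is below. The differences were 0.34 log2 (SE 0.16, unadjusted p 0.0477, adjusted p 0.431) in Sca1-negative and -0.31 in Sca1-positive cells by limma.

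The difference of both luminal effects on Sesn1, Sca1-positive minus Sca1-negative, was -0.65 log2 (SE 0.23), with an unadjusted p of 0.0091 and an adjusted p of 0.614, in a comparison that called 19 genes (0.0953%), none of them among the 7. Its F test over 6 subpopulations had an unadjusted p of 0.0362 and an adjusted p of 0.289. In stromal cells Sesn1 was 8.12, 7.69 and 7.91 in parous samples, against 8.20, 8.15 and 8.21 in nulliparous samples (difference -0.28, not passing), so the groups are apart by a small margin. Counting all 7 genes, 3 had groups without overlap in luminal Sca1-negative cells (Ccng1 and Sesn1 higher in parous, Trp53inp1 lower), where 17.7% of all genes did. In luminal Sca1-positive cells there were 2 (Sesn1 and Trp53inp1, both lower in parous), where 12.9% of all genes did, and in total epithelial cells Trp53inp1 alone, where 15.0% did.

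In basal CD49f-high cells the 2 parous samples stood far apart for some of the genes. Sesn1 was 7.72 in parous replicate 2 and 6.83 in parous replicate 3, against 7.74, 7.80 and 7.70 in nulliparous samples. Trp53inp1 was 9.34 in replicate 2 and 7.77 in replicate 3, against 9.02, 8.93 and 9.15 in nulliparous samples. In both genes replicate 3 is the lowest of the 5 samples, while replicate 2 lies close to the nulliparous ones or above them, and 0 of the 7 genes had groups without overlap, against 27.7% of all genes. With both parous samples the difference was -0.47 for Sesn1 (SE 0.18, adjusted p 0.111, limma) and -0.48 for Trp53inp1 (SE 0.31, adjusted p 0.396). With replicate 3 as the only parous sample, which is then assumed to vary like the other groups, both passed, Sesn1 at -0.92 (adjusted p 0.0022) and Trp53inp1 at -1.26 (adjusted p 0.00885).

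The same cells differed in other lists. The 29 proliferation genes averaged 5.77 and 5.79 in the parous CD49f-high samples, against 6.21, 6.77 and 7.59 in the nulliparous ones, with 12 of 29 lower. The 20 immediate early and stress genes averaged 10.29 and 10.18 in parous samples, against 9.94, 9.53 and 9.44 in nulliparous samples, with 10 of 20 higher and 1 lower. The mean over 10 basal markers was 10.56 and 10.67 in parous samples, against 10.31, 9.90 and 9.80 in nulliparous samples, and 5 of 10 passed as higher (Oxtr at 1.43, Myh11 at 0.89, Tagln at 0.87, Cnn1 at 0.80 and Actg2 at 0.77). Among the other marker lists, Muc1 (luminal, 0.77), Cd68 (macrophage, 1.20) and Lep (adipocyte, 2.25) passed as higher and Emcn (endothelial, -2.36) as lower, 1 gene in each list, and no fibroblast or lymphocyte marker passed. Both parous samples lie on the same side of the nulliparous ones in the proliferation, immediate early and basal lists. The part of these lists in the values of the 7 genes was not tested.

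Between subpopulations the differences were larger, and the largest were those of Trp53inp1 and Plk2. Trp53inp1 averaged 10.92 ± 0.36 in luminal Sca1-positive cells, 9.87 ± 0.29 in luminal Sca1-negative cells, 9.85 ± 0.27 in total epithelial cells, 9.10 ± 0.34 in basal CD49f-low cells, 8.84 ± 0.62 in basal CD49f-high cells and 8.07 ± 0.39 in stromal cells (SD over both histories, n = 6, and n = 5 for CD49f-high). In that order, luminal Sca1-positive samples (10.63 to 11.61) lie clear of luminal Sca1-negative samples (9.58 to 10.38), and total epithelial samples (9.63 to 10.36) lie clear of basal CD49f-low samples (8.56 to 9.51). Luminal Sca1-negative and total epithelial samples overlap, as do both basal sorts, and basal CD49f-high (7.77 to 9.34) and stromal samples (7.43 to 8.48).

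**Figure D4:**
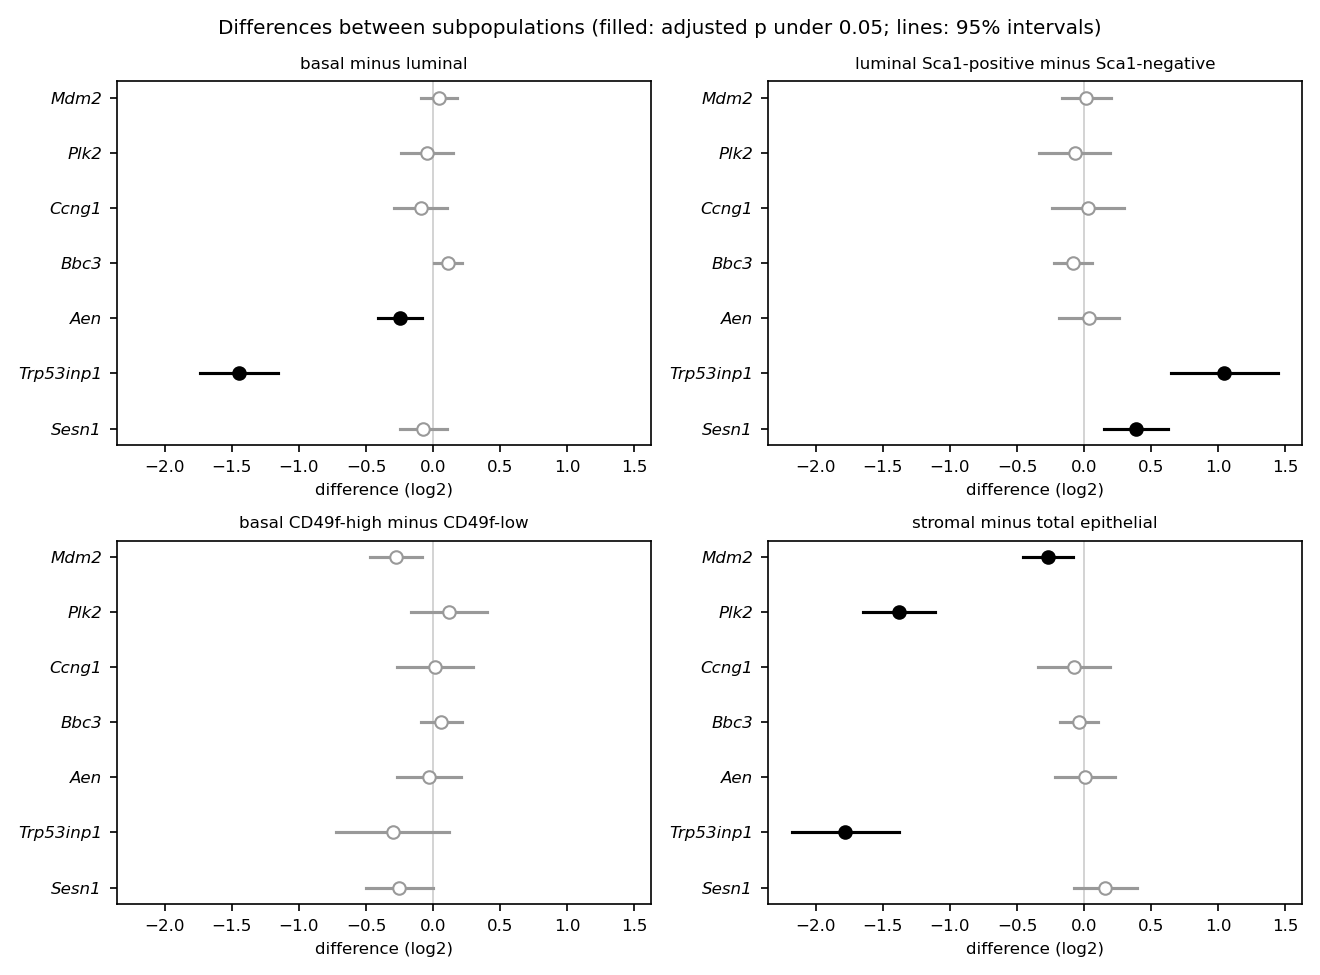
Differences between subpopulations, averaged over history (horizontal axes, log2, first-named minus second-named), for each of the 7 genes (vertical axes), with 95% intervals of the limma fit as lines and filled points where the adjusted p is under 0.05. Trp53inp1 is lower in basal than in luminal cells by 1.45, higher in luminal Sca1-positive than Sca1-negative cells by 1.04, and lower in stromal than in total epithelial cells, at -1.78.

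Between basal and luminal cells, 2 of the 7 genes passed, both lower in basal cells, and 35.0% of all genes passed (19.5% as lower in basal cells). Trp53inp1 averaged 8.94 in basal and 10.39 in luminal cells, a difference of -1.45 log2 (SE 0.14, limma adjusted p 1.23e-09), and no basal sample reached a luminal one, which 4.67% of all genes did in either direction. Aen averaged 6.36 in basal and 6.61 in luminal cells, a difference of -0.24 (SE 0.08, adjusted p 0.0168), with samples from 6.02 to 6.68 in basal and from 6.39 to 6.91 in luminal cells, which overlap. The call for Aen passed in 45 of 46 alternatives and was missed after quantile normalization, at an adjusted p of 0.0502. Bbc3 averaged 6.15 in basal and 6.04 in luminal cells (difference 0.11, SE 0.05, adjusted p 0.0887); it passed after quantile normalization (adjusted p 0.0216) and without parous basal CD49f-low replicate 1 (adjusted p 0.0492). Mdm2, Plk2, Ccng1 and Sesn1 differed by 0.05, -0.05, -0.09 and -0.07 between basal and luminal cells, and each of their 95% intervals held 0 and no difference above 0.29 in size.

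Between the luminal sorts, 2 of the 7 genes passed, both higher in Sca1-positive cells, and 16.1% of all genes passed (9.00% as higher). Trp53inp1 was higher by 1.04 log2 (SE 0.19, limma adjusted p 0.000187) and passed in 46 of 46 alternatives, as it did between basal and luminal cells. It was the only one of the 7 whose luminal groups did not overlap, where 8.38% of all genes did not. Sesn1 averaged 7.90 in Sca1-positive and 7.51 in Sca1-negative cells, higher by 0.39 (SE 0.12, adjusted p 0.0184). The samples overlapped (7.62 to 8.19 in Sca1-positive and 7.17 to 7.80 in Sca1-negative cells), and the call was lost without Sca1-negative parous replicate 3 (adjusted p 0.0518), without Sca1-negative nulliparous replicate 3 (0.0591) or without nulliparous pool 3 (0.156). In nulliparous cells alone the Sesn1 means were 8.06 in Sca1-positive and 7.35 in Sca1-negative cells, and in parous cells 7.75 and 7.68.

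Between the basal sorts none of the 7 genes passed (limma, adjusted p), and 3.54% of all genes did. An unadjusted p under 0.05 was found for 1 of the 7 and for 18.3% of all genes. None of the 7 had groups without overlap, and 0.928% of all genes did. The gene with the low unadjusted p was Mdm2, which averaged 9.52 in CD49f-high and 9.79 in CD49f-low cells (difference -0.28, SE 0.10, adjusted p 0.104). It passed without nulliparous CD49f-high replicate 2 (-0.33, adjusted p 0.0479) and with parous CD49f-high replicate 3 as the only parous sample of that sort (-0.38, adjusted p 0.0318). With that single parous sample Sesn1 (-0.47, adjusted p 0.0155) and Trp53inp1 (-0.70, adjusted p 0.0293) passed too. CD49f-high samples came from 2000 cells and CD49f-low samples from 10000, so input and cell type cannot be told apart here.

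Between stromal and total epithelial cells, 3 of the 7 genes passed, all lower in stromal cells, and 29.2% of all genes passed (15.6% as lower in stromal cells). Trp53inp1 was lower by 1.78 log2, at 8.07 in stromal and 9.85 in total epithelial cells (SE 0.19, limma adjusted p 1.45e-08). Plk2 averaged 9.31 in stromal and 10.69 in total epithelial cells, a difference of -1.38 (SE 0.13, adjusted p 8.05e-10). For these 2 genes the samples did not overlap, where 16.8% of all genes did not, and both passed in 46 of 46 alternatives. Plk2 was at 10.07 or below in every stromal sample and at 10.32 or above in every other sample, and its means in the 5 epithelial sorts lay within 10.61 and 10.75.

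Mdm2 was lower in stromal cells by a smaller amount, at 9.48 in stromal and 9.75 in total epithelial cells (difference -0.27, SE 0.09, limma adjusted p 0.0229), with overlapping samples. It passed in 40 of 46 alternatives. It was missed after quantile normalization (adjusted p 0.14) and without stromal parous replicate 1 (0.0901), epithelial parous replicate 2 (0.056), stromal nulliparous replicate 1 (0.0635), epithelial nulliparous replicate 2 (0.0647) or nulliparous pool 1 (0.0683). Ccng1, Bbc3, Aen and Sesn1 differed by -0.07, -0.04, 0.01 and 0.16 between stromal and total epithelial cells and did not pass. Plk2 thus had a large difference both between stroma and epithelium and, within stroma, between histories: parous stromal cells were 1.99-fold below nulliparous stromal cells.

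Other genes of the pathway were followed as lists of p53 targets and regulators. Of 42 further targets in growth arrest, apoptosis, DNA repair and metabolism, 38 were measured, and all 21 of the regulators, kinases and family members were. After parity, 0 of the 38 targets passed in stromal cells by limma and 1 of the 21 regulators did, while 0.597% of all genes passed. This was Ppp1r13b, which encodes ASPP1, a partner that steers p53 to apoptotic targets. It stood at 5.48, 5.42 and 5.51 in parous stroma, against 6.30, 6.27 and 6.35 in nulliparous stroma. The groups are far apart, and the difference was -0.84 log2 (SE 0.14, limma adjusted p 0.00142), passing in 45 of 45 alternatives. In basal CD49f-high cells Ppp1r13b passed in the other direction, at 6.33 and 6.62 in parous samples, against 5.88, 6.05 and 5.98 in nulliparous samples (difference 0.50, adjusted p 0.0403), and its 6 parity effects differed by the F test (range 1.34, adjusted p 0.00203).

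In the epithelial sorts few of the pathway genes passed after parity. In total epithelial cells none of the 38 targets or 21 regulators passed by limma. Over the 4 sorted epithelial subpopulations, 2 of 38 targets passed (median effect 0.01 log2, against -0.002 over all genes), and 1 of 21 regulators. Apaf1, the scaffold of the apoptosome, averaged 6.34 in parous and 6.99 in nulliparous cells (difference -0.64, SE 0.11, adjusted p 0.000244). Tob1, an antiproliferative protein, averaged 10.83 in parous and 10.51 in nulliparous cells (difference 0.33, SE 0.07, adjusted p 0.00469). Sirt1, a deacetylase that acts on p53, averaged 9.22 in parous and 8.81 in nulliparous cells (difference 0.41, SE 0.09, adjusted p 0.00598). These 3 calls passed in 45 of 45 alternatives, while 6.20% of all genes passed. In the same comparison 13 of 20 immediate early and stress genes passed as higher, and 19 of 29 proliferation genes as lower and 1 as higher, and their part in these differences was not tested.

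Sort by sort, Apaf1 was lower in parous luminal Sca1-positive cells, at 6.14, 5.82 and 6.48 in parous samples, against 7.30, 6.94 and 7.14 in nulliparous samples (difference -0.98 log2, limma adjusted p 0.0156). It missed the threshold without parous replicate 1 (adjusted p 0.0714) or 2 (0.168), without nulliparous replicate 1 (0.0919) or 3 (0.0627), without nulliparous pool 1 (0.0733), and in a fit of luminal Sca1-positive samples alone (0.0837). Ercc5, a nuclease of nucleotide excision repair, was lower in parous basal CD49f-low cells, at 7.44, 7.34 and 7.39 in parous samples, against 7.99, 8.01 and 8.26 in nulliparous samples (difference -0.70, adjusted p 0.0132). It missed the threshold without parous replicate 2 (adjusted p 0.0698) or 3 (0.0549), without nulliparous replicate 3 (0.0734), without nulliparous pool 3 (0.0592) and in a fit of those samples alone (0.109). Tob1 passed in luminal Sca1-negative cells (difference 0.55, adjusted p 0.047) in the full fit and in 20 of 45 alternatives, and the adjusted p reached 0.192 without nulliparous replicate 2 of that sort.

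Markers of other cells moved in these same sorts. In luminal Sca1-negative cells the mean over 10 basal markers was 7.31, 7.15 and 7.16 in parous samples, against 6.73, 6.93 and 6.69 in nulliparous samples, and 3 of 10 passed as higher (Krt5 at 1.30, Cnn1 at 1.21 and Myh11 at 0.93). There 2 of 20 immediate early and stress genes passed as higher (Dusp1 and Myc) and 1 of 29 proliferation genes as lower (Birc5). In luminal Sca1-positive cells the basal list overlapped between histories, with Krt14 (1.54) the 1 of 10 higher, and Dcn (-1.35) was the 1 of 10 fibroblast markers lower. The mean over 10 endothelial markers there was 6.15, 5.99 and 5.82 in parous samples, against 5.62, 5.30 and 5.48 in nulliparous samples, without overlap, and none of the 10 passed. Of the 20 immediate early and stress genes, Egr2 (-0.76) was lower. In basal CD49f-low cells the mean over 10 fibroblast markers was 6.65, 6.72 and 6.51 in parous samples, against 7.43, 7.41 and 6.99 in nulliparous samples. These groups do not overlap, and 1 of 10 passed as lower (Lum at -1.70). Zfp36 (0.49), an immediate early gene, was higher there. The part of these markers in the differences of Tob1, Apaf1 and Ercc5, and in those of the 7 genes in the same sorts, was not tested.

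In basal CD49f-high cells 3 of 38 targets passed as lower in parous samples, against 9.06% of all genes in either direction, and 4 of 21 regulators passed, 2 in each direction. The targets were Apaf1 (-1.01 log2), Sesn2 (-0.71), a sestrin like Sesn1, and Ercc5 (-0.61). Of the regulators, Trp53bp2, which encodes ASPP2, was at 9.28 and 9.39 in parous samples, against 10.09, 10.04 and 9.88 in nulliparous samples (difference -0.66, SE 0.09, limma adjusted p 1.91e-05). Hipk2, a kinase that phosphorylates p53, differed by -0.42, and Trp73, a p53 relative, by 0.44. With CD49f-high samples fitted alone, these 7 calls, Ppp1r13b among them, had adjusted p-values of 0.264 to 0.526 at the same differences. In the full fit the parity effects of Trp53bp2 (adjusted p 0.000297) and Ercc5 (adjusted p 0.00876) differed among the 6 subpopulations by the F test. That test includes the same 2 parous CD49f-high samples. Outside CD49f-high cells the effects on Trp53bp2 ran from -0.007 to 0.27, while the lowest effect on Ercc5 was in CD49f-low cells (-0.70). Ercc5 was the 1 of 38 targets, and Trp53bp2 with Ppp1r13b the 2 of 21 regulators, that passed the F test.

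Between basal and luminal cells 20 of the 38 other targets passed, 12 higher and 8 lower in basal cells, while 35.0% of all genes passed. Their median difference was 0.05 log2, against 0.004 over all genes. Among those higher in basal cells were Phlda3, an inhibitor of Akt signalling (1.36), Perp, a desmosomal protein (1.11), Ak1, an adenylate kinase (0.87), and Fas, a death receptor (0.78). Among those lower were Polk, a translesion polymerase (-1.32), Gadd45a, a stress and repair protein (-0.93), and Pmaip1, which encodes the BH3-only protein NOXA (-0.59). Of the 21 regulators 9 passed, 2 higher and 7 lower. The family member Trp63, a basal master regulator that is also one of the basal markers used here, averaged 9.82 in basal and 6.47 in luminal cells (difference 3.35, SE 0.11, limma adjusted p 6.41e-20), while Hipk2 (-0.93) and Trp53bp2 (-0.53) were lower in basal cells.

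Between the luminal sorts 11 of the 38 targets passed, 8 higher and 3 lower in Sca1-positive cells, while 16.1% of all genes passed. Of the 21 regulators 7 passed. Polk (1.43 log2), Sfn (0.66), which encodes the 14-3-3 sigma protein, and Gadd45a (0.65) were higher, as Trp53inp1 and Sesn1 were, while Fas (-1.29) and Sesn2 (-0.66) were lower. Sesn1 and Sesn2 thus passed in opposite directions between both luminal sorts. Among the regulators, 4 passed as higher, including Hipk2 (0.69) and Trp53bp1 (0.64), and 3 as lower, including Sirt1 (-0.76) and Trp53bp2 (-0.58).

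Between the basal sorts 4 of 38 targets and 3 of 21 regulators passed, while 3.54% of all genes did. The targets were all lower in CD49f-high cells, namely Ppm1d (-0.73 log2), a phosphatase that dampens p53 signalling, Ak1 (-0.64), Sesn2 (-0.48) and Gadd45a (-0.42). The regulators Trp53bp2 (-0.37), Hipk2 (-0.32) and Usp7 (-0.25), which removes ubiquitin from Mdm2 and p53, were lower as well. In a fit of the basal sorts alone, the adjusted p-values of these 7 genes (Ppm1d, Ak1, Sesn2, Gadd45a, Trp53bp2, Hipk2 and Usp7) lay between 0.113 and 0.341 at the same differences. Markers of other cells differed in the same comparison, with 2 of 10 fibroblast markers lower in CD49f-high cells (Lum at -2.03 and Pdgfra at -0.97), 2 of 10 endothelial markers lower (Cdh5 at -1.40 and Pecam1 at -0.93), 1 of 6 adipocyte markers lower (Lpl at -0.54) and 1 of 10 basal markers higher (Actg2 at 0.90). Their part in these differences was not tested.

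Between stromal and total epithelial cells 18 of 38 targets passed, 3 higher and 15 lower in stromal cells, while 29.2% of all genes passed. Their median was -0.22, against 0.02 over all genes. Perp (-2.91), Sfn (-2.52) and Plk3 (-1.10), a relative of Plk2, were lower, and Dram1 (1.39), a lysosomal protein of autophagy, and Eda2r (0.80), a receptor of the TNF receptor family, were higher. Of the 21 regulators 10 passed. Of these 1 was higher, Mdm4 (0.33), the partner of Mdm2, and 9 were lower, among them Trp63 (-2.49).

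The 7 genes shared little of a pattern. Across the 12 group means, the Pearson correlation between pairs of them ran from -0.51 (Bbc3 and Sesn1) to 0.66 (Plk2 and Trp53inp1), and within groups, over deviations from group means in 35 samples, from -0.25 to 0.47 (Mdm2 and Bbc3). Both genes of a pair are read from the same arrays, and groups perhaps share pools, so these values are a description. Plk2 and Trp53inp1 also have a low stromal level in common. The genes of the whole table whose 12 group means were most like each one were found by the same correlation. They were Ccdc68 (0.98), Krt6a (0.98) and Gnl3l (0.98) for Trp53inp1, Fnbp1l (0.95), Abcd3 (0.95) and Eif3k (0.95) for Plk2, and Fxr1 (0.91), Atxn2l (0.91) and Sbno2 (0.90) for Mdm2. For Sesn1 they were Tial1 (0.90), Odr4 (0.89) and Agpat5 (0.89), for Aen Zfp54 (0.93), Trmo (0.91) and Adprm (0.90), and for Bbc3 Bpifa2 (0.94), Cd209f (0.92) and Olfr1414 (0.91). The values for Ccng1 were lower, with Relb (0.78), Chrna1 (0.75) and Sbk3 (0.73).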

How the data were processed

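The values deposited by the authors are log2 expression levels, 1 per probe set, on 1-colour Affymetrix arrays, 1 array for each of 35 samples. Per the labels, RNA was amplified and labelled with biotin, and the submitters' processing notes name affy. For its version, the background correction, the normalization and the genome build, the sources used here give nothing. Column medians lay between 5.813 and 5.924.

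Of 34760 probe sets, 21640 had a single gene symbol in the annotation used, 1321 several and 11799 none. Only single-symbol probe sets entered, and 954 genes with several of them kept the one with the highest mean, which left 19937 genes.

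limma 3.58.1 in R 4.3.3 (lmFit, eBayes with trend) was fitted to 12 group means over all samples, with a shared estimate of the spread. Benjamini-Hochberg adjustment ran over the 19937 genes in each comparison, and genes under 0.05 passed. SE and 95% intervals are those of the fit. The fit was also run on simulated data with independent normal noise of the same spread in every group. That simulation holds no shared pools and no sort of larger spread, so it cannot show their effect on the fit. Parity effects are parous minus nulliparous, and a moderated F test compared the 6 effects.

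All 7 measured genes were tested in every comparison, although the text does not give each value. From the lists, up to 4 passing genes per list and direction were eligible to be named. The 7 genes, the lists and the tests were chosen with earlier results of these data known. Alternatives were eBayes without a trend, array weights, quantile normalization, dim genes left out, averaging a gene's probe sets, random blocks of pools, the replicate number as a block, only the compared subpopulations, each sample left out in turn, and nulliparous pool 1 or 3 left out. Pools were taken from the replicate numbers, which the labels do not tie to the same mice across sorts. The pool as a fixed block was chosen after seeing the data. Motifs were searched in RefSeq windows of GRCm38.p6.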

Additional observations from a re-analysis of the deposited data

Results flagged for a closer look

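Sesn1 had parity effects of opposite direction in different sorts. Every parous sample was above every nulliparous one in luminal Sca1-negative cells, and below every nulliparous one in luminal Sca1-positive and in stromal cells, so that its parity effects over the 6 subpopulations spanned 0.811 log2 units. The moderated F test of that difference had an adjusted p of 0.289, and the effect differed between both luminal sorts by -0.65 (Sca1-positive minus Sca1-negative) at an adjusted p of 0.614, so neither test passed.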

How the results depend on the processing

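No passing call among the 7 genes changed direction under any alternative. With 1 sample left out at a time, the number of the 7 genes passing ran from 0 to 2 for parity in basal CD49f-high cells, from 0 to 2 for parity over the sorted epithelial subpopulations, from 0 to 1 for the F test among subpopulations, from 2 to 3 between basal and luminal cells, from 1 to 2 between luminal sorts, from 0 to 3 between basal sorts, and from 2 to 3 between stromal and total epithelial cells. It stayed at 1 for parity in stromal cells and at 0 in total epithelial, both luminal and basal CD49f-low cells. The upper values for CD49f-high cells, the sorted epithelial mean, the F test and the basal sorts come from leaving out parous CD49f-high replicate 2, and the lower value between luminal sorts from leaving out Sca1-negative replicate 3 of either history. Leaving out nulliparous pool 3 gave 1 gene between luminal sorts, against 2 in the full fit.

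The replicate number as a block gave 1 gene by the F test (Plk2), against 0 without it, and 936 of all genes, against 558. It changed no other call of the 7 genes. Samples of both histories with the same number correlated at -0.05 to 0.225 in their deviations from group means (median 0.068). Of these pairs 4 of 17 were above 0.1, and 12 of 17 samples were closest to their own number. Pairs with different numbers correlated at -0.176 to 0.051 (median -0.0365), with 0 of 34 above 0.1. The labels state no pairing and the main fit used none, and an effect shared by number across histories was not tested. Across subpopulations, same-numbered samples of 1 history correlated at 0.012 to 0.338, and 38 of 40 parous and 45 of 45 nulliparous comparisons were highest for the same number. The count over all genes depended more on the setting. A fit of the compared sorts alone called 18 genes for parity in stromal cells, against 119 in the full fit, 67 in luminal Sca1-positive cells, against 121, 62 in basal CD49f-low cells, against 193, and 28 between basal sorts, against 705. In basal CD49f-high cells it called 0 genes by limma from 5 samples, with 2101 at an unadjusted p under 0.05, against 1806 called in the full fit, which shares the spread of 35 samples. Array weights called 614 genes in luminal Sca1-negative cells, against 200, 544 in basal CD49f-low cells and 194 in luminal Sca1-positive cells. Without nulliparous pool 1, total epithelial cells had 231 genes, against 89, and without nulliparous pool 3 the sorted epithelial mean had 824, against 1237. With 1 sample left out, the lowest parity counts were 64 in stromal, 29 in total epithelial, 81 in luminal Sca1-negative, 72 in luminal Sca1-positive, 89 in basal CD49f-low and 1173 in basal CD49f-high cells, and 391 genes were the lowest between basal sorts. The fixed block of pools called 1134 there. Few arrays per group limit the size of difference that could pass.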
